A study of Mus musculus with 6 samples.

Results

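The Schlafen (Slfn) family was followed in CD11b+ Gr-1+ cells sorted from mouse gliomas with mutant IDH1 (mIDH1) and with wild-type IDH1 (wtIDH1). The 7 members, Slfn1, Slfn2, Slfn3, Slfn4, Slfn5, Slfn8 and Slfn9, were chosen by their gene symbols among the 23107 genes of the deposited count table. The family itself was selected on these libraries, after its counts in mIDH1 and wtIDH1 had been seen. The contrast of the members is therefore given as a description, and no p-value of a member is printed. Where members past the threshold are counted, the count describes the fit and supports nothing. All 7 passed the filter on low counts that left 12950 genes for testing. In mIDH1 libraries Slfn4 was 25.4-fold lower than in wtIDH1 libraries. Slfn5, Slfn8 and Slfn9 were each 2.13- to 2.45-fold lower, with every mIDH1 library under every wtIDH1 library. Slfn1, Slfn2 and Slfn3 had levels that overlapped between the groups.

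Each group held 3 libraries, and all mice were C57BL/6 per the labels. The mIDH1 group came from tumours with the mutant enzyme and the wtIDH1 group from tumours with the wild-type enzyme. Wild-type IDH1, an enzyme of the cytosol, turns isocitrate into alpha-ketoglutarate; glioma mutants convert that product to 2-hydroxyglutarate. The labels name neither the allele, the tumour model and the age of the animals, nor whether each library came from its own mouse. P-values thus refer to the spread among 3 libraries a group, part of which may be technical. The series title names G-CSF and myeloid cells that suppress immunity. No library held a count of Csf3, which encodes G-CSF, and its receptor gene Csf3r fell (157, 176 and 110 CPM, counts scaled to the library size after TMM, in mIDH1 libraries, against 248, 260 and 273 CPM in wtIDH1 libraries; log2 fold change -0.82 ± 0.19 SE, adjusted p = 0.0214, edgeR). The fall of Csf3r did not pass when any 1 of the wtIDH1 libraries was left out.

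Schlafen proteins share an amino-terminal core, and cleavage or binding of transfer RNA is known for several of them. The short members, Slfn1 and Slfn2, hold little beyond that core. Slfn3 and Slfn4 are of intermediate length, and the long members Slfn5, Slfn8 and Slfn9 add a carboxy-terminal region related to helicases. Several Schlafen genes of mouse and human are induced by type I interferon, which acts through the receptor chains Ifnar1 and Ifnar2, the kinases Jak1 and Tyk2, and a transcription factor that contains Stat2 and Irf9. In mouse leukocytes the family is best known for restraint of proliferation in T cells and for roles in monocytes, macrophages and the growth of myeloid cells.

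Library totals ran from 19728204 to 35093267 counts in mIDH1 and from 20502713 to 27750515 counts in wtIDH1, and a gene with a count of 0 could still have a level of up to 3 counts, or 0.0855 to 0.152 CPM depending on the library. This limit covers counting error only. Itgam, which encodes CD11b, averaged 2072 ± 211 CPM in mIDH1 and 1894 ± 146 CPM in wtIDH1 libraries (SD, n = 3 each). Ly6c2, which encodes a Ly6C protein that carries the Gr-1 epitope, fell to 45.0 ± 10.4 CPM in mIDH1, against 152 ± 54.1 CPM in wtIDH1 (log2 fold change -1.76 ± 0.26 SE, adjusted p = 0.0018, edgeR). S100a8, an abundant transcript of neutrophils, was low in both groups, at 10.3 ± 0.965 CPM in mIDH1 and 4.31 ± 2.53 CPM in wtIDH1. mIDH1 replicate 3 stood apart for these genes. It was the lowest of the 3 mIDH1 libraries for all 7 Schlafen members, and for 4584 of the 12950 genes tested (35.4%). Each member is therefore also given without it.

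The 7 genes lie in 1 cluster of 264 kb on chromosome 11 of GRCm38, with no other protein-coding gene inside it in the GENCODE vM21 annotation. In chromosomal order it holds Slfn5 (82951349 to 82964840, plus strand), Slfn9 (82978390 to 82991830, minus), Slfn8 (83002158 to 83020810, minus) and the pseudogene Slfn10-ps (83028130 to 83040042, minus). Slfn2 (83065112 to 83070678), Slfn1 (83116849 to 83122670), Slfn4 (83175186 to 83190216) and Slfn3 (83191330 to 83215154) follow, all on the plus strand. Promoter windows of RefSeq (GRCm38.p6; 250 bases before to 50 after a start site, 300 in all) were found for all 7 members. Each was searched on both strands for the core of the interferon-stimulated response element, GAAANNGAAA. The core stood in the windows of Slfn5, Slfn8 and Slfn9, the long members, and in 3.99% of the 27025 genes with a window. It was not found in the other 4. The stretches below, read 5′ to 3′ on the strand of the gene, show the core in capitals; on the strand of Slfn8 and Slfn9 it reads as its reverse complement.
Slfn5, chr11:82951922-82951981, plus strand: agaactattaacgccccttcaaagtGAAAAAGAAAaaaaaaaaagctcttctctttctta
Slfn9, chr11:82991841-82991900, minus strand: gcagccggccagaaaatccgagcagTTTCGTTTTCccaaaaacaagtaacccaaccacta
Slfn8, chr11:83020824-83020883, minus strand: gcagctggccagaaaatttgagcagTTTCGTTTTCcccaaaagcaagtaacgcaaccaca

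In Slfn9 the core spans bases -45 to -36 from the start site. For Slfn8, which has a pair of annotated start sites, it spans -48 to -39 from the upstream one. The whole windows of these neighbours were 80.8% identical after alignment, against 46.5 to 53.0% for the other 20 pairs of members. In Slfn5 the match lies farther upstream of the RefSeq start site, at -155 to -146, and runs into a stretch of A. The GENCODE gene begins farther upstream still, at 82951349, so by that annotation the match lies inside the gene. The core of the gamma-activated site, TTCNNNGAA, a palindrome that was searched on both strands at once and overlaps no other match here, was found in 0 of 7 members and in 9.55% of genes. A match is a string of letters and no measured binding site, and its absence from a window of this length says nothing of a factor.

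Windows that differed from the response element core in 1 letter were looked for after the data had been seen. All 7 members held at least 1 match with up to 1 letter changed, as did 38.9% of all genes. They are shown for Slfn4, the member with the largest difference between the groups, and for Slfn1, Slfn2 and Slfn3, the other members without the exact core, with the near match in capitals.
Slfn4, chr11:83174936-83174995, plus strand: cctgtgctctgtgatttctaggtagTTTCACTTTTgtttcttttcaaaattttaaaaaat
Slfn4, chr11:83175007-83175066, plus strand: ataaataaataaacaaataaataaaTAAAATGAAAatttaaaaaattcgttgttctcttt
Slfn1, chr11:83116762-83116821, plus strand: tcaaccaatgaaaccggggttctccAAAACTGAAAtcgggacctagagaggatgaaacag
Slfn2, chr11:83065028-83065087, plus strand: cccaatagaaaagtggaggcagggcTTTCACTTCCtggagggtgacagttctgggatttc
Slfn3, chr11:83191285-83191344, plus strand: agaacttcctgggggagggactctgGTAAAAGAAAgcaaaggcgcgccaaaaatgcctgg

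Slfn4, an interferon-induced member studied in mouse for its part in myeloid cell development and as a marker of suppressive myeloid cells in the stomach, had 67.9, 44.1 and 15.3 CPM in mIDH1 libraries, against 661, 1063 and 1517 CPM in wtIDH1 libraries. The highest mIDH1 library was far under the lowest wtIDH1 library. The mean was 42.4 ± 26.3 CPM in mIDH1 and 1080 ± 428 CPM in wtIDH1 (SD, n = 3 each), and the log2 fold change was -4.67 ± 0.48 SE. Among the 12950 genes tested it had the 17th most negative log2 fold change, and among the 9647 with a mean of at least 5 CPM the most negative of all. By CPM it ranked 4292 from the top in mIDH1 and 88 from the top in wtIDH1. Without mIDH1 replicate 3 its log2 fold change was -4.27, and across the alternatives tried it lay between -5.19 and -4.27. Since RNA was measured from sorted pools, fewer cells that express a gene and less of its RNA per cell cannot be told apart, here and for the other members.

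**Figure D1:**
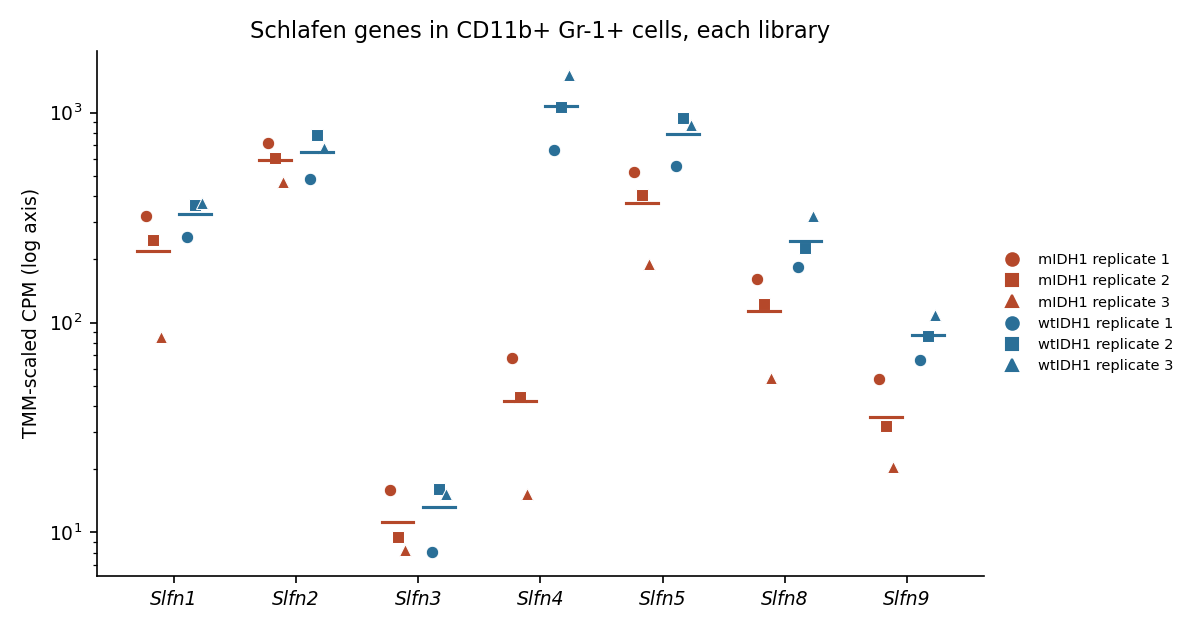
Levels of the 7 Schlafen genes in CPM scaled by TMM, on a log axis, with 1 symbol per library (mIDH1 in red on the left of each pair, wtIDH1 in blue on the right) and a bar at the mean of 3. Slfn4 has mIDH1 libraries at 15.3 to 67.9 CPM and wtIDH1 libraries at 661 to 1517 CPM, whereas the libraries of Slfn2 overlap.

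The long members were lower in all mIDH1 libraries than in any wtIDH1 library. Slfn5, an interferon-induced gene whose human counterpart is described as a regulator of transcription and cell motility, had 520, 407 and 190 CPM in mIDH1, against 555, 945 and 874 CPM in wtIDH1. mIDH1 replicate 1 and wtIDH1 replicate 1 were close to each other. The log2 fold change was -1.09 ± 0.31 SE, and -0.77 without mIDH1 replicate 3.

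Slfn8, a long member of the mouse family, had 162, 122 and 54.2 CPM in mIDH1, against 183, 227 and 323 CPM in wtIDH1. The gap between the groups was narrow, and mIDH1 replicate 3 was well under the other mIDH1 libraries. Its log2 fold change was -1.11 ± 0.33 SE, and -0.78 without mIDH1 replicate 3. Slfn9, its neighbour and close paralog, had 53.6, 32.3 and 20.4 CPM in mIDH1, against 66.0, 86.7 and 109 CPM in wtIDH1. All 6 libraries kept to the same order as for Slfn8. The log2 fold change of Slfn9 was -1.29 ± 0.31 SE, and -1.02 without that library.

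The short members did not separate the groups. Slfn1, the founding member, first described as a brake on thymocyte growth, had 321, 248 and 85.8 CPM in mIDH1, against 254, 364 and 371 CPM in wtIDH1. mIDH1 replicate 1 was above wtIDH1 replicate 1, while mIDH1 replicate 3 was 3.74-fold under mIDH1 replicate 1. The log2 fold change was -0.59 ± 0.35 SE, and -0.21 without mIDH1 replicate 3. Slfn2, which keeps T cells and monocytes quiescent in mouse and protects transfer RNA from cleavage, had 717, 606 and 465 CPM in mIDH1, against 482, 779 and 679 CPM in wtIDH1. The lowest mIDH1 and the lowest wtIDH1 library were nearly level. With a log2 fold change of -0.12 ± 0.21 SE, it turned to 0.03 without mIDH1 replicate 3, and it was also above 0 without wtIDH1 replicate 2.

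Slfn3, known mainly from rat for its part in the differentiation of the intestinal epithelium, was the member with the fewest counts. It had 16.0, 9.56 and 8.28 CPM in mIDH1, against 8.09, 16.1 and 15.3 CPM in wtIDH1. The lowest library of all was a wtIDH1 library. The log2 fold change was -0.22 ± 0.43 SE, and -0.04 without mIDH1 replicate 3.

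All 7 members had a log2 fold change below 0, with a median of -1.09, against a median of 0.055 and 46.6% below 0 for all 12950 genes tested. At an adjusted p under 0.05 in edgeR, 3 of 7 members (Slfn4, Slfn5 and Slfn9) were called lower and 0 higher, where 5.39% of all genes were called lower and 2.78% higher. Since the family was chosen on this contrast, nothing is read from that count. The groups did not overlap for 4 of 7 members, against 14.9% of all genes with every mIDH1 library under every wtIDH1 library. Slfn8 stood just outside the threshold and Slfn5 just inside it. Leaving out mIDH1 replicate 2, wtIDH1 replicate 2 or wtIDH1 replicate 3 left 1 member called, Slfn4, in each case.

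**Figure D2:**
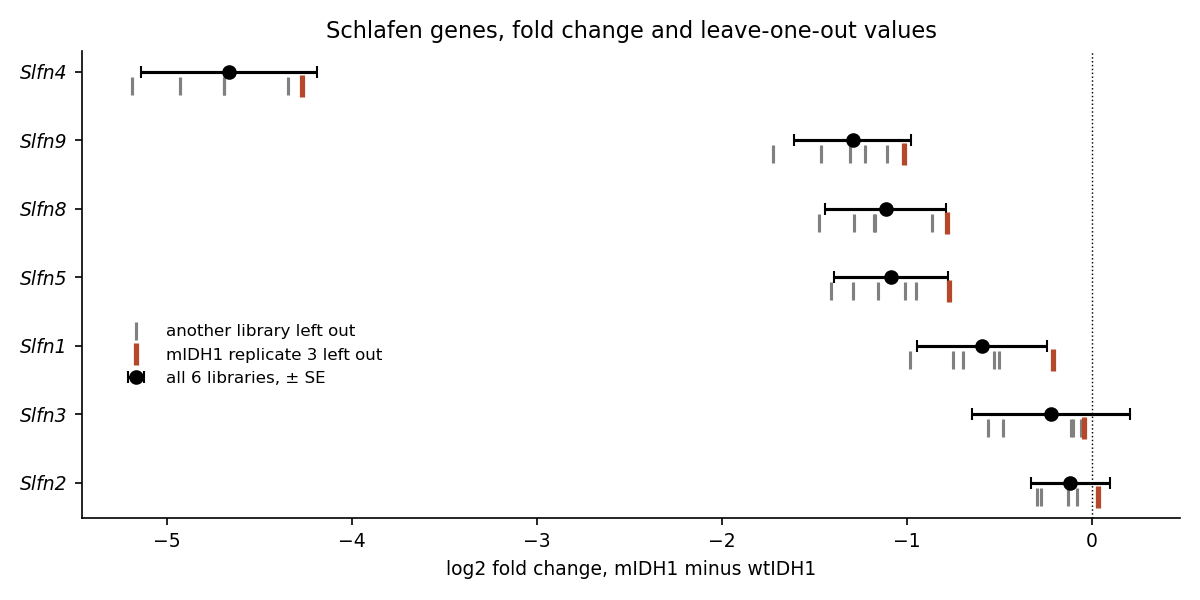
Log2 fold change (mIDH1 minus wtIDH1) of each Schlafen gene as a black point with its SE, and below it, as ticks, the value with 1 of the 6 libraries left out, in red for mIDH1 replicate 3. Slfn4 stays between -5.19 and -4.27, the long members stay below 0, and the ticks of Slfn2 fall on both sides of 0.

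Order within the family differed between the groups. Per kilobase of annotated exon, the members of mIDH1 libraries ran from Slfn2 (358 ± 75.7 CPM per kilobase) through Slfn1 (117 ± 64.5), Slfn5 (61.7 ± 27.8), Slfn8 (28.1 ± 13.6) and Slfn4 (10.7 ± 6.64) to Slfn3 (6.21 ± 2.28) and Slfn9 (6.02 ± 2.86). Only Slfn2 and Slfn1 were neighbours in this order whose ranges over 3 libraries did not overlap. Exon lengths were those of the basic set of GENCODE, which gives Slfn3 1816 bases, whereas its longest annotated transcript has 2834. The order of Slfn3 and Slfn9 in mIDH1 thus depends on the transcripts that are counted. In wtIDH1 libraries the order was Slfn2 (389 ± 91.0 CPM per kilobase), Slfn4 (273 ± 108), Slfn1 (177 ± 35.1), Slfn5 (131 ± 34.4), Slfn8 (61.0 ± 17.9), Slfn9 (14.8 ± 3.62) and Slfn3 (7.25 ± 2.43). There, the ranges over 3 libraries did not overlap between Slfn5 and Slfn8, Slfn8 and Slfn9, or Slfn9 and Slfn3, and those of the other neighbours did. Within each wtIDH1 library taken alone the order was the same. Slfn4 thus stood next to Slfn3 and Slfn9 at the low end per kilobase in mIDH1, and next to Slfn2 at the high end in wtIDH1.

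Together the 7 genes took 0.184, 0.150 and 0.0894% of all counts in mIDH1 libraries, against 0.222, 0.331 and 0.376% in wtIDH1 libraries. Their summed level was 1388 ± 513 CPM in mIDH1 and 3193 ± 876 CPM in wtIDH1 (SD, n = 3 each). Without Slfn4 the sums were 1346 ± 487 CPM in mIDH1 and 2112 ± 489 CPM in wtIDH1. Slfn4 made up 3.66, 3.00 and 1.82% of the family's counts in mIDH1, against 29.9, 30.5 and 39.0% in wtIDH1. Slfn2, whose own CPM overlapped between the groups, made up 45.1 ± 9.06% of the family's counts in mIDH1 and 20.5 ± 2.68% in wtIDH1. Ratios of the counts of members within a library do not depend on its scaling. The count ratio of Slfn5 to Slfn2 was 0.725, 0.672 and 0.408 in mIDH1, against 1.15, 1.21 and 1.29 in wtIDH1. That of Slfn8 to Slfn9 was 3.02, 3.80 and 2.66 in mIDH1, against 2.78, 2.62 and 2.98 in wtIDH1. The ratios of Slfn5 to Slfn2 thus did not overlap between the groups, while those of the paralogs Slfn8 and Slfn9 did.

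**Figure D3:**
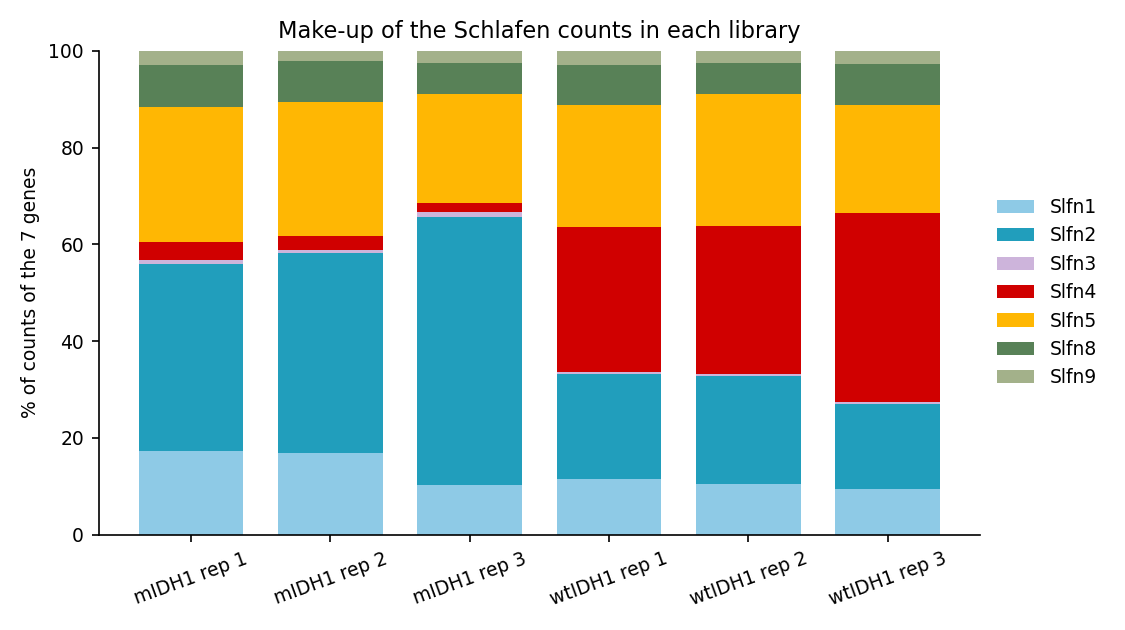
Share of each Schlafen gene in the summed counts of the 7 genes, as stacked bars in percent, with the 3 mIDH1 libraries on the left and the 3 wtIDH1 libraries on the right. Slfn4 (red) takes 1.82 to 3.66% in mIDH1 libraries and 29.9 to 39.0% in wtIDH1 libraries.

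Close paralogs share reads, and no source used here says how the authors' counting treated reads that match several genes. In the annotated transcripts, 14.6% of the 50-base windows of Slfn8 and 11.2% of those of Slfn9 also stand in another member of the family or in Slfn10-ps. The shares were 8.15% for Slfn4, 7.39% for Slfn3, 4.27% for Slfn2, 0.606% for Slfn1 and 0 for Slfn5. Slfn3 and Slfn4, which stand next to each other, share 252 such windows. By CPM, Slfn3 ranged over 1.99-fold between the 6 libraries and Slfn4 over 99.0-fold. The part of shared reads in these values was not tested. Adding the counts of Slfn3 and Slfn4 gave a log2 fold change of -4.35 ± 0.43 SE, and adding those of Slfn8 and Slfn9 gave -1.16 ± 0.32 SE. The antisense gene Slfn5os, which overlaps Slfn5, had 0 counts in all 6 libraries; the library kit did not mark strand.

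Among the relatives outside the 7 members, Slfn10-ps had enough counts to be tested. This transcribed pseudogene between Slfn8 and Slfn2 had 37.6, 34.6 and 20.3 CPM in mIDH1, against 16.7, 20.6 and 23.0 CPM in wtIDH1 (log2 fold change 0.62 ± 0.30 SE, adjusted p = 0.254, edgeR). The groups overlapped. The nearest 10 named protein-coding genes on each side of the cluster were examined as neighbours, and 15 of these 20 were tested. None passed the threshold in edgeR, and DESeq2 called 2. Their median log2 fold change was 0.45, with 5 of 15 below 0. An unadjusted p under 0.05 was held by 3 of them. These 3 went both ways. Ccl6, a chemokine gene of myeloid cells, stood at 0.56 ± 0.16 SE, its neighbour Ccl9 at 0.77 ± 0.26 SE and Taf15 at -0.55 ± 0.21 SE (log2 fold changes, none past the threshold).

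**Figure D4:**
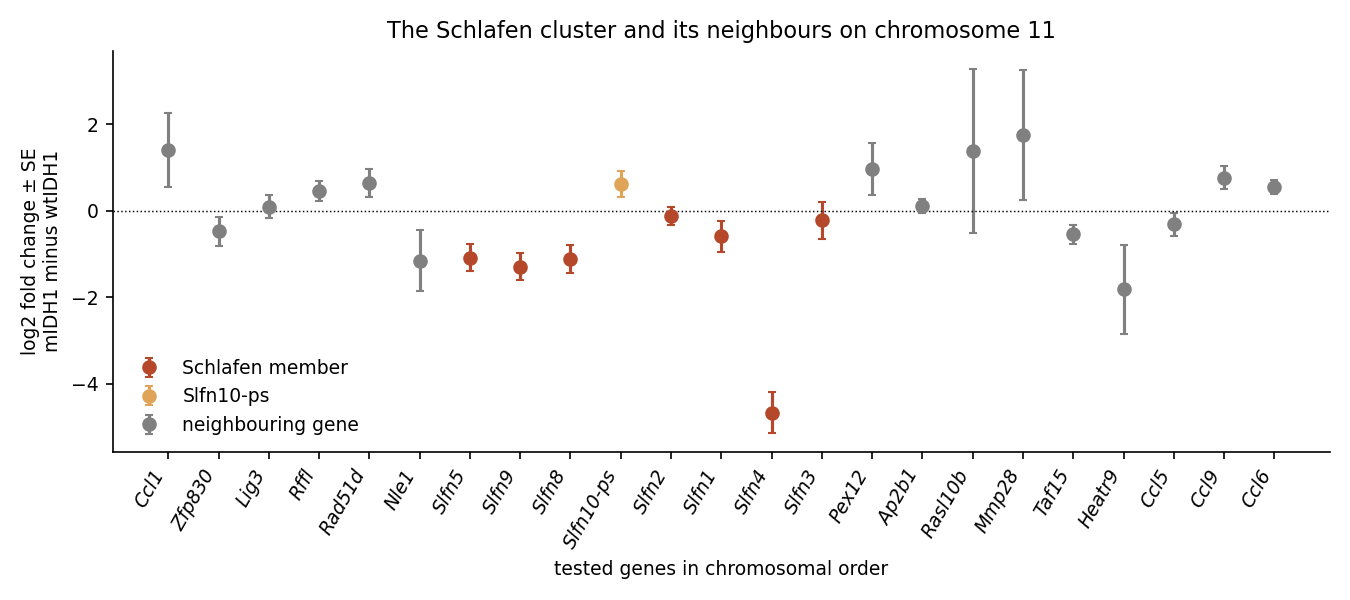
Log2 fold change (mIDH1 minus wtIDH1) ± SE of the tested genes in and around the Schlafen cluster, in chromosomal order, with members in red, Slfn10-ps in orange and neighbouring genes in grey. The members lie between -4.67 and -0.12, and Slfn10-ps, inside the cluster, lies at 0.62.

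Genes induced by type I interferon fell together in mIDH1 libraries. Of a list of 39 tested, which holds no Schlafen gene, 31 fell and 0 rose in edgeR at an adjusted p under 0.05, and 38 had a log2 fold change below 0. DESeq2 also called 31. Their median log2 fold change was -1.35, against 0.055 for all genes tested. Oas2, an antiviral oligoadenylate synthetase, fell to 28.7, 24.8 and 23.3 CPM in mIDH1, against 145, 238 and 223 CPM in wtIDH1 (log2 fold change -2.98 ± 0.22 SE, adjusted p = 3.9e-05). Mx2 (-2.86 ± 0.27 SE), Oasl1 (-2.49 ± 0.26 SE) and the antiviral GTPase Mx1 (-3.03 ± 0.35 SE) followed. Slfn4 had a more negative log2 fold change than any gene of this list, Slfn9 ranked below 21 of the 39, Slfn5 and Slfn8 below 28, and Slfn1, Slfn2 and Slfn3 below 38, counting from the most negative. mIDH1 replicate 3 was the lowest of its group for 34 of the 39 genes. The count fell to 16 without mIDH1 replicate 2 and to 11 without wtIDH1 replicate 2 or wtIDH1 replicate 3, and it was 32 without mIDH1 replicate 3. A fall of these genes was already known from these libraries, and it lends no separate support to the values of the Schlafen genes.

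Ligand, receptor and transcription factor genes of the pathway were counted next, where 5.39% of all genes tested were called lower and 2.78% higher. Of 11 interferon ligand genes, 7 had 0 counts in all libraries and 3 were tested, with none past the threshold in edgeR or DESeq2 and 1, Ifng, at an unadjusted p under 0.05. Ifng, the gene of interferon gamma, had 64.3, 53.5 and 24.1 CPM in mIDH1, against 36.5, 26.0 and 21.8 CPM in wtIDH1 (log2 fold change 0.75 ± 0.34 SE, adjusted p = 0.213, edgeR). The groups overlapped, and without mIDH1 replicate 3 Ifng was the 1 ligand called higher. Ifnb1, the gene of interferon beta, had 3.70, 0 and 0.618 CPM in mIDH1, against 1.02, 0.0379 and 0.454 CPM in wtIDH1, with overlapping libraries. The other ligand tested, Ifnk, averaged 1.36 ± 1.95 CPM in mIDH1 and 4.92 ± 1.39 CPM in wtIDH1 (SD). Its log2 fold change was -1.84 ± 1.15 SE (adjusted p = 0.389, edgeR). Every mIDH1 library was under every wtIDH1 library for Ifnk, by a narrow gap and on few counts. Of 9 receptor and kinase genes 6 had a log2 fold change below 0 and 4 an unadjusted p under 0.05, and DESeq2 called 2 lower and 1 higher. Their summed level was 1921 to 2084 CPM in mIDH1 and 2087 to 2300 CPM in wtIDH1, without overlap by a narrow gap. In edgeR 1 of the 9 fell and 0 rose. It was Tyk2, a kinase bound to Ifnar1 (71.1 ± 6.16 CPM in mIDH1 and 144 ± 22.4 CPM in wtIDH1; log2 fold change -1.02 ± 0.18 SE, adjusted p = 0.0055, edgeR). Ifnar1 stood at -0.54 ± 0.19 SE (adjusted p = 0.111) and Ifnar2 at -0.13 ± 0.16 SE (adjusted p = 0.690). Of 9 transcription factor genes 3 fell and 0 rose, 9 of 9 had a log2 fold change below 0 and 8 had an unadjusted p under 0.05. The summed level of the 9 was 1921 to 3219 CPM in mIDH1 and 3554 to 4369 CPM in wtIDH1, without overlap. Stat2 fell most among these (125, 73.8 and 56.6 CPM in mIDH1, against 289, 391 and 440 CPM in wtIDH1; log2 fold change -2.13 ± 0.27 SE, adjusted p = 0.00076, edgeR). Irf8, a factor of monocyte development, fell by 0.76 and Irf5 by 0.59 on the log2 scale. Irf9, a partner of Stat2, stood at -0.60 ± 0.19 SE and did not pass (adjusted p = 0.0697). The count of 3 was 1 without mIDH1 replicate 2, wtIDH1 replicate 1 or wtIDH1 replicate 2, and 6 without mIDH1 replicate 1. Without mIDH1 replicate 1 the receptor and kinase count was 3.

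Lists tied to what Schlafen proteins do held 4 calls, all lower, where 5.39% of all genes tested were called lower and 2.78% higher. So few calls in lists of this size are read as no result about the lists. Of 16 genes of transfer RNA cleavage and stalled ribosomes 1 fell and 0 rose, with a median log2 fold change of 0.071 and 5 at an unadjusted p under 0.05. Of these, 8 had a log2 fold change below 0 and 8 above. Their summed level was 896 to 944 CPM in mIDH1 and 958 to 1006 CPM in wtIDH1, without overlap. The group means of the sum, 924 and 987 CPM, were closer together than those of Gtpbp2 alone. The sum therefore shows no fall of the list as a set. The gene that fell was Gtpbp2, a ribosome rescue factor (32.1 ± 4.29 CPM in mIDH1 and 123 ± 22.3 CPM in wtIDH1; log2 fold change -1.94 ± 0.21 SE, adjusted p = 0.00022, edgeR). Of 12 quiescence genes 2 fell and 0 rose, 10 had a log2 fold change below 0, 5 had an unadjusted p under 0.05 and the median was -0.38. Their sums did not overlap either, at 1576 to 2540 CPM in mIDH1 and 3025 to 3632 CPM in wtIDH1. These were Klf4, a transcription factor of monocytes (-1.63 ± 0.30 SE, adjusted p = 0.0062), and Cdkn1a, an inhibitor of cyclin-dependent kinases (-1.24 ± 0.18 SE, adjusted p = 0.0019). Of 10 proliferation genes 1 fell, the cyclin gene Ccnd1 (-0.85 ± 0.21 SE, adjusted p = 0.028, edgeR), and 0 rose. Ccnd1 no longer passed without replicate 1 or 2 of mIDH1, or replicate 2 or 3 of wtIDH1. Without mIDH1 replicate 3, the counts were 3 for transfer RNA cleavage and stalled ribosomes and 2 for proliferation.

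To place the Schlafen values beside other patterns of expression, the 3 genes with the most similar profile were found for each member. Likeness was the root mean square difference of log2 CPM over the 6 libraries, each gene centred on its own mean, among 8986 named genes with a mean of at least 5 CPM. Points share the same libraries and depths, and the measure is a description. Slfn1 was nearest to Fgr, a Src family kinase gene of myeloid cells (difference 0.034), then to Vim (0.153) and Zbtb32 (0.160). Slfn5 was nearest to Jarid2 (0.077), Mxd1 (0.121) and Traf1 (0.136), and Slfn8 to Jarid2 (0.125), Tdrd7 (0.136) and Traf1 (0.138). Slfn9 was nearest to Trim30a (0.084) and Parp14 (0.087), both in the interferon-induced list, and to Rasgrp4 (0.116). Slfn2 was nearest to Pcyt1a (0.059), Bak1 (0.060) and Klf3 (0.060), and Slfn3 to Angel2 (0.081), Wars (0.103) and Gtdc1 (0.140). For Slfn4 no gene came close. The nearest were Cgnl1 at 0.762, the interferon-induced Mx1 at 0.877 and Grasp at 0.965. Within the family the smallest differences were between Slfn8 and Slfn9 (0.179) and between Slfn5 and Slfn8 (0.190), and the largest was between Slfn2 and Slfn4 (2.42). With each gene centred within each group instead, Slfn4 differed from the other members by 0.207 (Slfn8) to 0.514 (Slfn2).

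**Figure D5:**
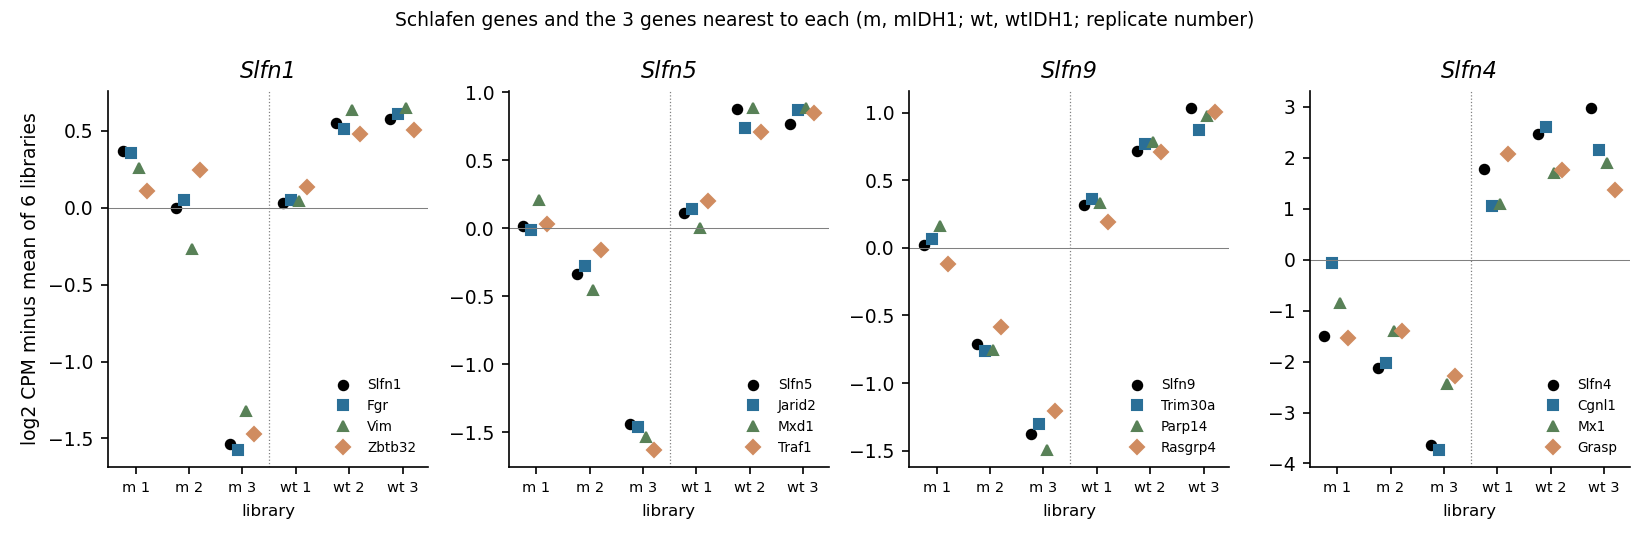
Log2 CPM minus the gene's own mean over 6 libraries for Slfn1, Slfn5, Slfn9 and Slfn4 (black circles) and the 3 genes nearest to each (coloured symbols), with mIDH1 libraries left of the dotted line and wtIDH1 libraries right of it. The symbols of Slfn1 and Fgr nearly coincide (difference 0.034), while those of Slfn4 and its nearest gene stand apart (0.762). The difference includes the size of the change between the groups.

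Markers of cell types that the gate could hold moved with the groups. Over all genes tested, 5.39% were called lower and 2.78% higher. Of 13 macrophage markers 8 rose and 0 fell in mIDH1, among them the mannose receptor gene Mrc1 (log2 fold change 2.53 ± 0.26 SE, adjusted p = 0.00017, edgeR). The summed level of the 13 was 7941, 8211 and 15302 CPM in mIDH1 libraries, against 5992, 4899 and 4752 CPM in wtIDH1 libraries. mIDH1 replicate 3, the lowest mIDH1 library for each Schlafen member, had the highest macrophage sum. The largest part of that sum was Apoe, which was not called (adjusted p = 0.102, edgeR). Apoe had 2173, 2690 and 6836 CPM in mIDH1, against 2184, 1930 and 1920 CPM in wtIDH1, with overlapping libraries. The count of 8 was 5 without mIDH1 replicate 2, mIDH1 replicate 3 or wtIDH1 replicate 1, 3 without wtIDH1 replicate 3 and 2 without wtIDH1 replicate 2. Of 10 monocyte markers 1 rose and 2 fell, with summed levels of 3299 to 5130 CPM in mIDH1 and 2088 to 3384 CPM in wtIDH1. The sums overlapped, and 7 of the 10 had a log2 fold change below 0 and 3 above, with a median of -0.55. The higher mIDH1 sums leaned on F13a1 and on Chil3, which was not called (adjusted p = 0.104, edgeR). Chil3 averaged 1492 ± 895 CPM in mIDH1 and 652 ± 317 CPM in wtIDH1 (SD). The monocyte sums thus run against most of the list. Of 12 neutrophil markers tested 3 rose and 1 fell, with sums of 933 to 1105 CPM in mIDH1 and 648 to 752 CPM in wtIDH1. The largest part of the mIDH1 sums was Il1r2, which was not called (adjusted p = 0.0586, edgeR). It had 306, 606 and 496 CPM in mIDH1, against 327, 187 and 263 CPM in wtIDH1, with overlapping libraries. The gap between the neutrophil sums thus leans on a gene that did not pass. Falling markers were Ly6c2 and Plac8 for monocytes and Csf3r for neutrophils, and the rising ones were F13a1 for monocytes and Lcn2, Mmp8 and Cxcr2 for neutrophils. Of the monocyte calls, 4 were lower without mIDH1 replicate 1, 1 was lower without wtIDH1 replicate 2 or 3, and 3 were higher without mIDH1 replicate 3.

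Other lists held fewer calls, to be set against the 5.39% of all genes called lower and the 2.78% called higher. Dendritic cell markers had 1 of 10 lower (Mgl2), with sums of 68.7 to 140 CPM in mIDH1 and 128 to 162 CPM in wtIDH1. Plasmacytoid dendritic cell markers had 1 of 5 tested lower, Bst2, which the interferon-induced list also holds, and sums of 212 to 243 CPM in mIDH1 and 232 to 307 CPM in wtIDH1. T and NK cell markers had 1 of 13 higher (Cd4), with sums of 487 to 948 CPM in mIDH1 and 362 to 654 CPM in wtIDH1. Microglia markers had 1 of 8 higher (P2ry13), with sums of 757 to 1445 CPM in mIDH1 and 779 to 1166 CPM in wtIDH1. Glioma and neural markers had 1 of 7 tested higher (Sox2), with sums of 96.7 to 111 CPM in mIDH1 and 88.2 to 100.4 CPM in wtIDH1. In the order given, 10 of 10, 3 of 5, 1 of 13, 4 of 8 and 2 of 7 had a log2 fold change below 0. An unadjusted p under 0.05 was held by 1, 1, 5, 3 and 3 of them. Of the B cell markers below, 1 of 5 had a log2 fold change below 0, and of the endothelial and pericyte markers 5 of 5. No B cell marker of 5 tested and no endothelial or pericyte marker of 5 tested passed in edgeR, with 1 and 2 at an unadjusted p under 0.05, and DESeq2 called 0 and 1. Sums of the B cell list were 49.5 to 51.9 CPM in mIDH1 and 34.0 to 39.6 CPM in wtIDH1, and those of the endothelial and pericyte list 79.1 to 140 CPM in mIDH1 and 168 to 209 CPM in wtIDH1. The single calls in these lists rested on few libraries. Leaving out wtIDH1 replicate 3 ended those of Mgl2, Bst2, Cd4, P2ry13 and Sox2, and leaving out wtIDH1 replicate 2 ended those of Bst2, Cd4, P2ry13 and Sox2. Those of Bst2, Cd4 and Sox2 also ended without mIDH1 replicate 2, those of Cd4 and Sox2 without wtIDH1 replicate 1, and that of Sox2 without mIDH1 replicate 3. The pericyte gene Rgs5 had 0 counts in all libraries. The part of these cell types in the Schlafen values was not tested.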

How the data were processed

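Values for the 3 mIDH1 and 3 wtIDH1 libraries are estimated counts, deposited as a single table without scaling for depth. The submitters' processing notes list Bowtie2 2.2.1, TopHat2 2.0.13, Cuffdiff 2.1.1, Cufflinks, HTSeq and FastQC and the build mm10, with no settings or annotation release. Per the labels' protocols, leukocytes were enriched on Percoll, CD11b+ Gr-1+ cells were sorted, and polyadenylated RNA went into TruSeq libraries that do not mark strand. Between 1.31 and 1.61% of values in a library were not whole, and all were rounded.

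Genes kept by filterByExpr (minimum count 10, minimum total 15) were compared with edgeR 4.0.16 (TMM, glmQLFit, glmQLFTest, group as the only term, all 6 libraries) in R 4.3.3, two-sided, adjusted by Benjamini-Hochberg over 12950 genes at 0.05. Log2 fold changes are mIDH1 minus wtIDH1, and levels are TMM-scaled CPM. The tests were tried on simulated counts. Replicate libraries were no copies of each other (chi-square over its degrees of freedom between 50.3 and 149 within groups). Each was entered as 1 sample, though this spread cannot tell separate mice from separate preparations of the same cells.

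The members, gene lists and neighbours were chosen with earlier results of these data known. Named were all members and relatives, for each list up to 4 members past the threshold with the smallest p, the 3 nearest profiles of each member, and 8 genes of the study's question, 1 of which is not reported here. Other genes named with values, such as Itgam, S100a8, Ccl6 and Rgs5, were picked after their values were seen. Promoter windows are RefSeq's, and gene models and exon lengths GENCODE's. Alternatives were other scalings and filters, DESeq2 1.42.0, limma 3.58.1 (voom), robust dispersion, unrounded counts, no Rn45s, a replicate block, paralogs added together and leaving out each library.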

Additional observations from a re-analysis of the deposited data

How the results depend on the processing

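Across the alternatives the log2 fold change of Slfn4 lay between -5.19 and -4.27, that of Slfn9 between -1.73 and -1.02, that of Slfn8 between -1.47 and -0.78 and that of Slfn5 between -1.41 and -0.77. Slfn2 was the member whose log2 fold change changed sign, reaching 0.03 with a library left out. The count of members called lower was 3, and 1 to 4 with a library left out; the members were chosen on this contrast, so these counts describe the settings and support nothing. The labels do not say whether equal replicate numbers pair the libraries. Deviations from the group mean correlated at -0.051 to 0.031 for equal numbers and at -0.039 to 0.072 for unequal ones. With 3 libraries a group this cannot exclude a weak pairing. The replicate block gave 1 member called, with 429 genes lower and 156 higher in all. Over all genes, leaving out a library gave 256 to 707 lower and 78 to 365 higher, DESeq2 gave 715 higher, and library totals alone gave 593 lower and 486 higher (55.0% lower, against 66.0%), with a median log2 fold change of 0.13. The interferon-induced count of 31 moved between 11 and 36 with a library left out. The response element core was found in 3 members, in 1 on the sense strand alone, and in 7 with up to 1 letter changed. The causes were not tested. Among the smaller lists and single genes, 656 values kept their call or size, 92 counts moved, 4 calls were gained and 4 lost. With 3 libraries a group, changes as small as that of Slfn2 could not be resolved.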

Other observations

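Schlafen relatives with few counts stood out in single libraries. Slfnl1, a Schlafen-like gene outside the cluster, had 2, 100 and 8 counts in mIDH1 libraries, against 0 in each of the 3 wtIDH1 libraries. It did not pass the filter on low counts for edgeR, and DESeq2, run without that filter, called it. Slfn14, whose human counterpart is known for a role in platelets, had 0 counts in each mIDH1 library and 0, 0 and 21 counts in wtIDH1 libraries. As a share of Slfn4 counts, Slfn3 counts were 23.6, 21.7 and 54.0% in mIDH1, against 1.22, 1.51 and 1.01% in wtIDH1.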
